A study of Rattus norvegicus with 9 samples.

Results

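The constitutive proteasome subunits are the genes of the protein-degrading machine that cells carry at all times. They were taken here as the genes with a Psm symbol whose cellular-component annotation in the deposited gene table names the proteasome complex, without the inducible catalytic subunits Psmb8, Psmb9 and Psmb10 and the interferon-linked activator genes Psme1 and Psme2. This rule used no measured value and found 39 of the 18629 genes in the table. The table holds 49 Psm symbols in all, and apart from the 5 genes left out by name another 5 (Psmg1, Psmg2, Psmg3, Psmg4 and Psme3ip1) lack the annotation. The 39 comprise 15 core genes, with 7 Psma and 8 Psmb symbols, and 21 regulatory genes, with 7 Psmc and 14 Psmd symbols. The other 3 are Psme3 and Psme4, which encode activators that cap the core, and Psmf1, which encodes an inhibitor of it. Some names do not stand for fixed parts of the particle in heart cells. Psmb11 is the catalytic subunit of the thymus, Psmc3ip is a cofactor of meiotic recombination named for its binding to Psmc3, and Psmd5, Psmd9 and Psmd10 are chaperones that help to assemble the base and leave it afterwards. In the deposited table (build rn6, per the submitters' processing notes) the 39 genes are spread over 16 chromosomes. Psmd11 lies at chr10:67810655-67857562 on the plus strand, Psmb7 at chr3:22890072-22956146 on the minus strand, and Psmb5 at chr15:33259039-33263634 on the minus strand, with Psmb11 beside it at chr15:33267413-33273587 on the plus strand.

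The study asked what the transcriptional co-activator Yap1 does in a cell model of diabetic heart muscle. Primary cardiomyocytes from Sprague-Dawley rats of 1 to 2 days were plated for 18 to 20 h in 10% serum, kept for 14 h in 1% serum with 1 g/L glucose, and then given 33 mM glucose and 100 nM insulin, in which they stayed for 48 h. All 9 libraries analysed come from cells in that high glucose and insulin medium. They differ in the adenovirus the cells received: 3 libraries carry a virus for green fluorescent protein (GFP, the control), 3 a virus for wild-type Yap1 (Yap1 WT) and 3 a virus for a short hairpin RNA against Yap1 (Yap1 shRNA). The labels name the cells wild type in genotype and give no promoter for the viruses. No control hairpin is among these libraries, so the hairpin and the GFP vector differ in more than Yap1, and the GFP cells that the labels mention without that medium were not analysed here. The labels do not say whether replicates come from separate cultures or litters, so p-values measure the spread between these libraries, which may be technical.

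In the proteasome, a barrel of alpha and beta rings encloses the sites that cut proteins. The alpha subunits form the outer rings and the gate, and the inner beta rings hold the cutting sites, which sit in Psmb5 (chymotrypsin-like), Psmb6 (caspase-like) and Psmb7 (trypsin-like). A regulatory particle caps the barrel: its base holds a ring of ATPases (Psmc1 to Psmc6) that unfold the substrate, and its lid holds subunits around Psmd14, the enzyme that removes the ubiquitin tag. In heart muscle, whose sarcomere proteins are replaced continually, much of this turnover passes through the ubiquitin and proteasome system. Subunit genes are known to be raised together by the factors Nfe2l1 and Nfe2l2, which pair with small Maf proteins and bind antioxidant response elements.

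The promoters of members that moved together and of members that did not are shown first. RefSeq promoter sequences (build GRCr8, 250 bases before to 50 bases after the annotated start) were matched by symbol for 34 of the 39 genes. Psma7, Psmb11, Psmd6, Psmd12 and Psmd14 had no match. The core of the antioxidant response element, TGACNNNGC, was searched on both strands, as were the others below, and motifs were allowed to overlap. It occurred in 8 of the 34 promoters (23.5%), against 12.1% of all 33469 promoters in the table and 14.2% of the promoters of tested genes. These 4 windows hold the motif, in capitals, and each runs 5′ to 3′ on the strand of its gene. The first pair belongs to genes called higher in both Yap1 groups, the second pair to catalytic subunits that were not called higher in either with TMM scaling. For Psmd9 the call in Yap1 WT was weak and was lost in several settings.

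Psmd1: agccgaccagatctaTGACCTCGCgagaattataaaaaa
Psmd9: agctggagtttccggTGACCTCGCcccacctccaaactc
Psmb5: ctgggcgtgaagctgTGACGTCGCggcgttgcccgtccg
Psmb6: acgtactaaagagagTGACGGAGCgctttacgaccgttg

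The Psmd1 window lies at chr9:94157791-94157829 on the plus strand, and the Psmd9 window at chr12:39018318-39018356 on the minus strand. The Psmb5 window lies at chr15:32047416-32047454 on the minus strand, and the Psmb6 window at chr10:55737849-55737887 on the plus strand. Counted from the annotated start, the motif begins at -165 in Psmd1, -77 in Psmd9, -60 in Psmb5 and -24 in Psmb6. A match of letters was thus present in promoters of genes that rose and of genes not called higher.

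The most frequent of the 5 motifs was CGGAAG, the core of sites for ETS factors, in 20 of the 34 promoters (58.8%), against 16.6% of all promoters and 29.3% of those of tested genes. The CCAAT box, CCAAT, occurred in 19 (55.9%), against 37.5% of all promoters and 37.2% of those of tested genes. The ETS core is shown for Psmd11, which had the largest fold change of the 38 genes tested in both comparisons with GFP. It is also shown for the core subunits Psma5 and Psmb7. All of these rose in both Yap1 groups. The motif was present in Psmc3ip too, which was called in neither comparison with GFP. It was absent from the promoters of Psmd1 and Psmd3, which rose in both. Capitals mark CGGAAG or its reverse complement.

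Psmd11: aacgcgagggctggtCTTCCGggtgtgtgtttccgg
Psma5: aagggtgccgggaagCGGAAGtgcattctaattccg
Psmb7: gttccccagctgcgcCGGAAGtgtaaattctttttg

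The windows lie at chr10:65932306-65932341 on the plus strand for Psmd11, chr2:198584363-198584398 on the plus strand for Psma5 and chr3:42827503-42827538 on the minus strand for Psmb7. The Psmd11 promoter held no TGACNNNGC and no CCAAT. The core of the site for TEAD factors, through which Yap1 reaches DNA, is CATTCC. It occurred in 3 of the 34 promoters (8.82%: Psma1, Psmd8 and Psmf1), against 14.2% of all promoters and 11.3% of those of tested genes. The heat shock element core, GAANNTTC, occurred in 2 (5.88%: Psmc3 and Psmd1), against 8.59% of all promoters and 5.61% of those of tested genes. In the knockdown the median log2 fold change of members with CGGAAG was 0.66, and of members without it 0.37. For TGACNNNGC these medians were 0.42 with it and 0.55 without it. A match is not a bound site, and these medians were not tested.

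Library totals ranged from 14868174 to 15368465 counts for GFP, from 10960046 to 11497108 for Yap1 WT and from 6103220 to 6357398 for Yap1 shRNA, so the knockdown libraries hold the fewest counts. Every tested member other than Psmd10 had at least 49 counts in each library. Levels are given as CPM, counts relative to the TMM-scaled library size, which compare 1 gene between libraries, or as TPM, the authors' values that also allow for transcript length. Yap1 itself measured 197, 197 and 190 CPM in GFP, 558, 811 and 621 CPM in Yap1 WT and 95.3, 95.9 and 95.2 CPM in Yap1 shRNA, in the order its labels imply. The cells did not stay alike otherwise: all 10 cardiomyocyte markers (Tnnt2, Myh6, Ryr2 and others) fell in both Yap1 groups. Their summed level was 17566 to 17917 CPM in GFP, 3101 to 4692 CPM in Yap1 WT and 1391 to 1467 CPM in Yap1 shRNA, with no marker at 0. The 8 fibroblast markers summed to 18561 to 19766, 12339 to 16721 and 7647 to 8373 CPM, also with none at 0. Most of that sum was Col1a1, and the markers did not all move the same way: 3 rose (Dcn, Lum and Pdgfra) and 4 fell in Yap1 WT, and 1 rose (Dcn) and 7 fell in Yap1 shRNA. The 3 erythroid markers in the table stayed at or below a sum of 0.319 CPM. In these bulk libraries fewer cells of a type and less RNA per cell cannot be told apart. The part of such changes in the proteasome results was not tested.

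Most proteasome genes were higher with added Yap1 than with GFP. Of the 38 genes that passed the count filter, 27 rose, 1 fell (Psmb5) and 10 passed the test in neither direction (edgeR quasi-likelihood test, Benjamini-Hochberg adjusted p under 0.05 over 13708 genes). Across all tested genes in that comparison 63.8% were called, 32.0% higher and 31.8% lower. The median log2 fold change of the 38 was 0.29, against 0.00 over all genes tested, which is a median of 1.22-fold. No member was called at 2-fold or more, where 9.19% of all tested genes were, and 3 were at 1.5-fold or more (Psmd11, Psmd3 and Psmd12), where 16.4% were. In 28 of the 38 the 3 Yap1 WT libraries lay wholly above the 3 GFP libraries, and in 1 wholly below, where the same held for 35.3% and 35.4% of all tested genes.

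Knockdown of Yap1 also went with higher proteasome genes, and by more. In Yap1 shRNA 31 of the 38 rose, none fell and 7 were not called, where 78.3% of all tested genes were called, 39.2% higher and 39.1% lower. The median log2 fold change was 0.50, against -0.01 over all tested genes. Of the 38, 17 were called higher at 1.5-fold or more, where 28.8% of all tested genes were. At 2-fold or more 6 of the 38 were called higher, where 19.2% of all tested genes were. These 6 were Psmd11, Psmd3, Psmd1, Psma5, Psmd12 and Psmd9. The shRNA libraries lay wholly above GFP in 30 members and wholly below in none, against 39.8% and 40.4% of all tested genes. Both comparisons use the same 3 GFP libraries, so they are not independent of each other. Side by side, 27 genes were called higher in both, 4 in the knockdown comparison alone (Psma4, Psmc3, Psmd4 and Psmd6) and none in the Yap1 WT comparison alone. The group of 4 depended on the setting. With library size alone they were called higher in Yap1 WT too, at 0.26 (Psma4, adjusted p = 0.00561), 0.22 (Psmc3, adjusted p = 0.00302), 0.16 (Psmd4, adjusted p = 0.0329) and 0.19 (Psmd6, adjusted p = 0.0162). The same held on TPM (limma-trend on log2(TPM + 1)), at 0.29, 0.25, 0.19 and 0.22. The median of all tested genes in Yap1 WT was itself raised in both fits, at 0.138 and then 0.136. Psmd4 and Psmd6 lay little above these medians. The share of all genes called in either fit was not counted, so these calls are not shown to exceed a shift common to all genes. Psma4 was also called higher in Yap1 WT when counts were thinned to equal depth (0.2, adjusted p = 0.0333), with that median at 0.014. With the trend on transcript length removed, Psma4 (0.24, adjusted p = 0.00455) and Psmc3 (0.12, adjusted p = 0.0303) were called higher there, with the median at 0.031. The share called was not counted for these fits either.

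The direct comparison of Yap1 WT with Yap1 shRNA tests the gap between them. Of the 38 genes, 26 were lower in Yap1 WT, none was higher and 12 were not called, where 62.5% of all tested genes were called, 31.3% lower and 31.2% higher. The median log2 difference was -0.31, against 0.04 over all tested genes. In 26 members the WT libraries lay wholly below the shRNA libraries and in 2 wholly above, where 32.6% and 33.6% of all tested genes did so. Of the 27 genes higher than GFP in both groups, 22 were lower in Yap1 WT than in Yap1 shRNA. The other 5 (Psma1, Psma2, Psma3, Psme4 and Psmf1) had no call between them. This split moved with the scaling. Upper quartile scaling gave 6 members higher and 20 lower and moved the median of all genes to 0.176. Scaling by library size alone gave 5 higher and 21 lower with that median at 0.152.

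**Figure D1:**
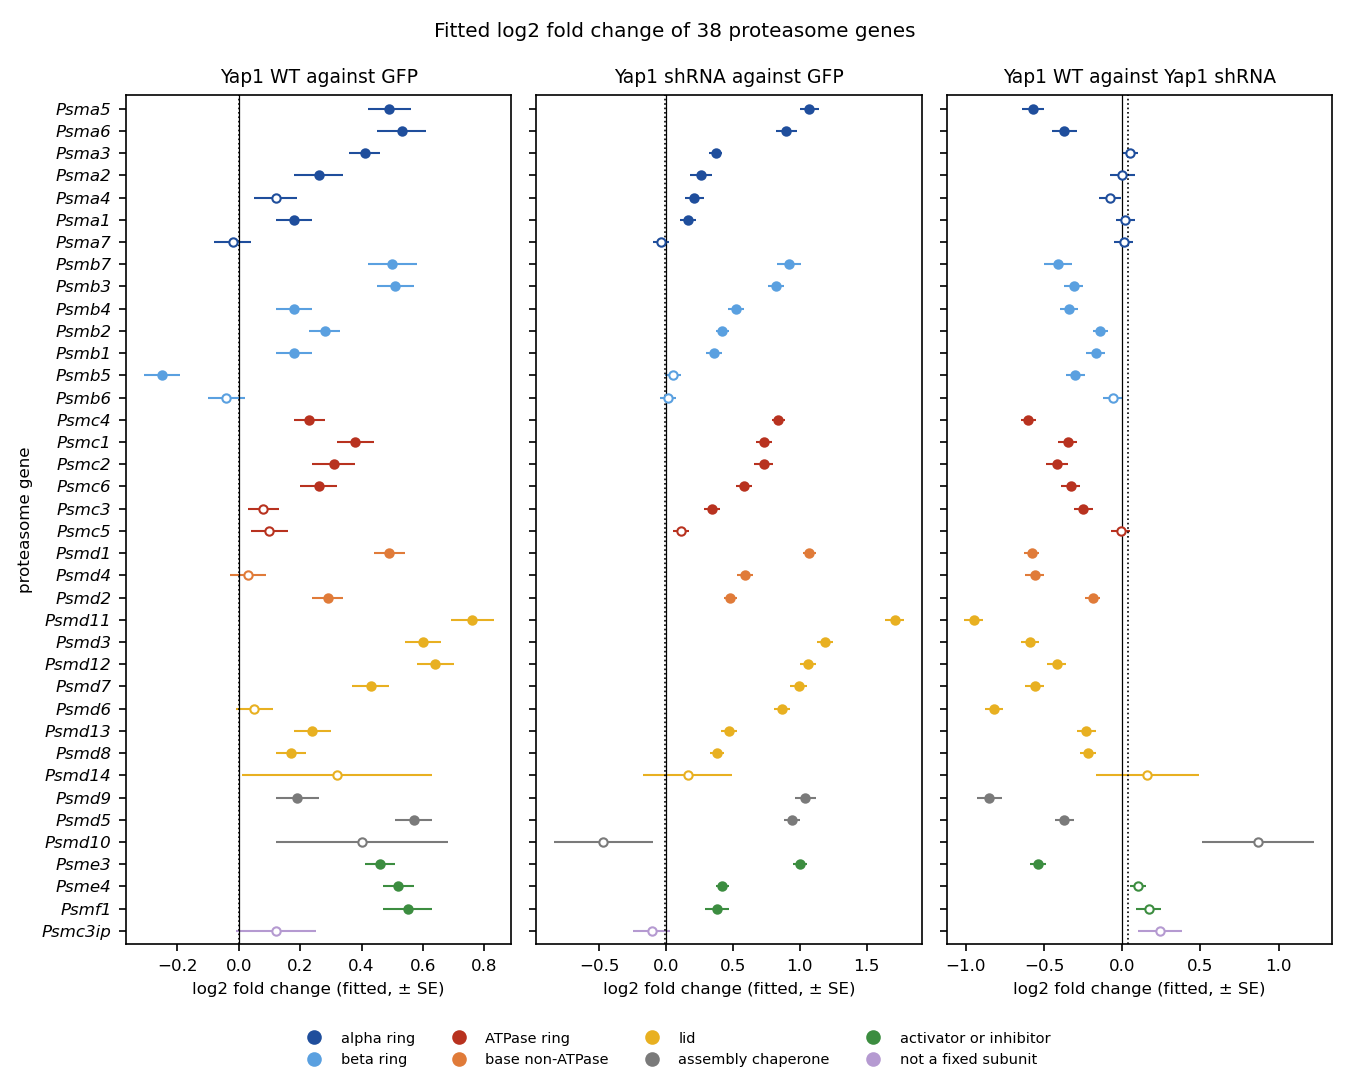
Fitted log2 fold change (horizontal axis, ± SE) of the 38 tested genes in the 3 comparisons, grouped by place in the particle. Filled points passed the adjusted p threshold of 0.05, open points did not, and the dotted line is the median of all tested genes. In the knockdown panel 31 filled points lie to the right of 0, and Psmd11 is farthest at 1.71.

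Among the alpha ring genes, Psma5 and Psma6 moved most. Psma5 measured 60.2, 70.5 and 66.1 CPM in GFP, 84.5, 97.4 and 95.5 CPM in Yap1 WT and 136, 136 and 140 CPM in Yap1 shRNA. The 3 groups did not overlap. Its log2 fold change was 0.49 (SE 0.07, adjusted p = 4.05e-05) in Yap1 WT and 1.07 (SE 0.07, adjusted p = 1.36e-08) in Yap1 shRNA. Psma6 measured 113, 115 and 112 CPM in GFP, 152, 178 and 159 CPM in Yap1 WT and 186, 228 and 218 CPM in Yap1 shRNA, again in 3 separate ranges. Its log2 fold change was 0.53 in Yap1 WT, the largest of the alpha ring there, and 0.90 in Yap1 shRNA. Psma3, Psma2 and Psma1 rose in both groups, with log2 fold changes of 0.41, 0.26 and 0.18 in Yap1 WT and 0.37, 0.26 and 0.16 in Yap1 shRNA. Their differences between the Yap1 groups were 0.05 (SE 0.05), 0.00 (SE 0.08) and 0.02 (SE 0.06), none of them called. With TMM scaling of the full counts Psma4 was called in the knockdown alone, with 0.21 (adjusted p = 0.0192) against 0.12 in Yap1 WT. Its libraries overlapped those of GFP in both. In Yap1 WT it was called higher in other fits, such as with counts thinned to equal depth (0.2, adjusted p = 0.0333). Psma7, the last of the ring, was called in neither group with TMM scaling. It measured 151, 145 and 159 CPM in GFP, 141, 152 and 153 CPM in Yap1 WT and 136, 156 and 150 CPM in Yap1 shRNA. Its log2 fold changes were -0.02 (SE 0.06) and -0.04 (SE 0.06), the 3 groups overlapped, and both sign and call turned with the setting. In Yap1 WT it was called higher on TPM (0.14, adjusted p = 0.0338) and with the trend on transcript length removed (0.14, adjusted p = 0.0233). In Yap1 shRNA it was called higher in those settings (0.17, adjusted p = 0.011, and 0.29, adjusted p = 0.00019) and lower with upper quartile scaling (-0.18, adjusted p = 0.0208). The TPM medians of all tested genes were 0.136 in Yap1 WT and 0.156 in Yap1 shRNA. The upper quartile median in Yap1 shRNA was -0.152. In the TPM and upper quartile fits Psma7 thus lay close to the typical gene. With the length trend removed those medians were 0.031 in Yap1 WT and 0.001 in Yap1 shRNA, and Psma7 lay above both.

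The 3 catalytic beta subunits went different ways. Psmb7, the trypsin-like subunit, measured 146, 176 and 163 CPM in GFP, 212, 244 and 231 CPM in Yap1 WT and 276, 300 and 338 CPM in Yap1 shRNA. Its log2 fold change was 0.50 (SE 0.08, adjusted p = 0.000182) in Yap1 WT and 0.92 (SE 0.09, adjusted p = 4.09e-07) in Yap1 shRNA. Psmb5, the chymotrypsin-like subunit, measured 141, 160 and 157 CPM in GFP, 127, 126 and 132 CPM in Yap1 WT and 154, 165 and 154 CPM in Yap1 shRNA. It was the 1 member that fell, by 0.25 on the log2 scale in Yap1 WT (SE 0.06, adjusted p = 0.00214), and its WT libraries lay below both other groups. That call was lost with scaling by library size alone (log2 fold change -0.11, adjusted p = 0.0903), on TPM (-0.08, adjusted p = 0.176) and with the trend on transcript length removed (-0.06, adjusted p = 0.246). The medians of all tested genes in those fits were, in the same order, 0.138, 0.136 and 0.031. In Yap1 shRNA its log2 fold change was 0.05 (adjusted p = 0.47). It was -0.09 with upper quartile scaling, and it was called higher on TPM (0.26, adjusted p = 0.000436) and with the length trend removed (0.41, adjusted p = 3.22e-06). Psmb6, the caspase-like subunit, measured 91.6, 85.6 and 87.1 CPM in GFP, 82.6, 88.9 and 84.6 CPM in Yap1 WT and 90.7, 82.6 and 92.8 CPM in Yap1 shRNA. The 3 ranges overlapped, and its log2 fold changes of -0.04 and 0.01 (SE 0.06 each) also changed sign between scalings. In Yap1 shRNA it was called higher on TPM (0.22, adjusted p = 0.013) and with the length trend removed (0.43, adjusted p = 7.55e-05), and with that trend removed in Yap1 WT as well (0.17, adjusted p = 0.0352). With TMM scaling Psmb5, Psmb6 and Psma7 were the tested core genes not called higher in either group, whereas on TPM or with the length trend removed all 3 were called higher in Yap1 shRNA. The median of all tested genes in Yap1 shRNA was itself 0.156 on TPM, and 0.001 with that trend removed.

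The non-catalytic beta genes rose in both groups, and Psmb3 rose most among them. Psmb3 measured 105, 106 and 108 CPM in GFP, 146, 158 and 152 CPM in Yap1 WT and 172, 200 and 194 CPM in Yap1 shRNA, with no overlap between groups. Its log2 fold changes were 0.51 (SE 0.06, adjusted p = 7.42e-06) and 0.82 (SE 0.06, adjusted p = 3.77e-08). Psmb4, Psmb2 and Psmb1 had log2 fold changes of 0.18, 0.28 and 0.18 in Yap1 WT and 0.52, 0.42 and 0.36 in Yap1 shRNA. Psmb11, the thymus subunit, did not pass the count filter: it summed to 3 counts over the GFP libraries, 19 over the Yap1 WT libraries and 9 over the Yap1 shRNA libraries. It measured 0.0693, 0 and 0.136 CPM in GFP, 0.248, 0.683 and 0.683 CPM in Yap1 WT and 0.319, 0.674 and 0.483 CPM in Yap1 shRNA, too low to read a change from here. On these few counts the authors' deposited table gives log2 fold changes of 2.98 in Yap1 WT (DESeq2 q-value 0.0361) and 2.85 in Yap1 shRNA (0.0711).

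**Figure D2:**
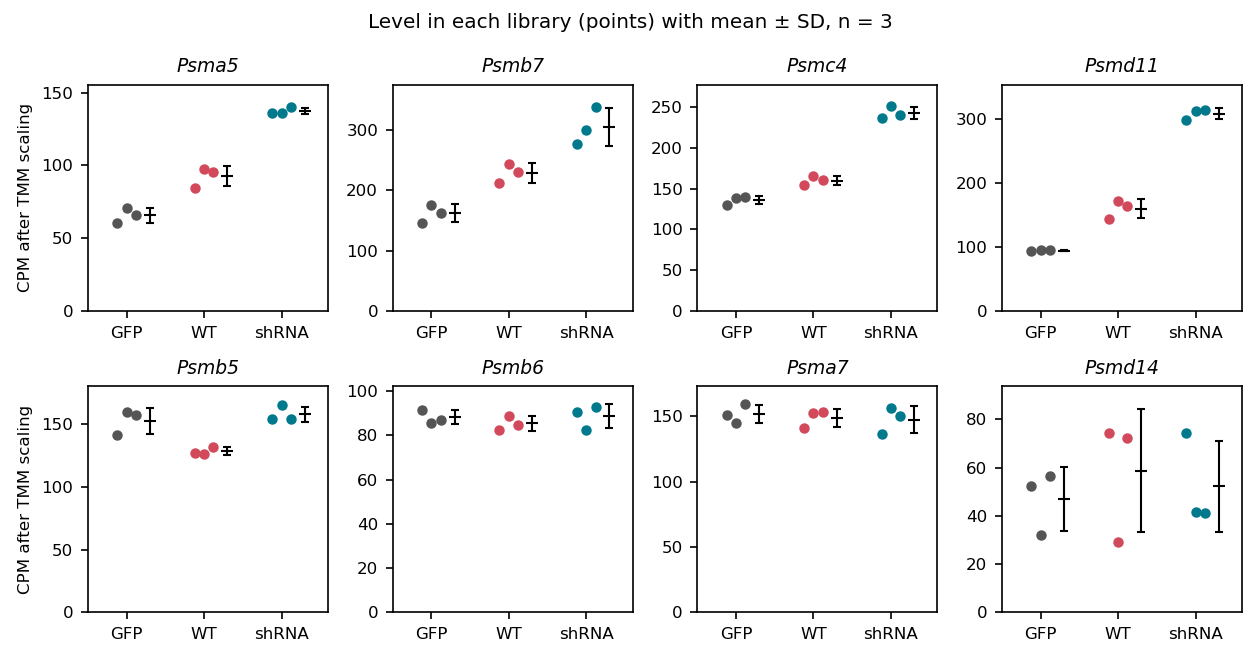
Level of 8 members in each of the 9 libraries (points, CPM after TMM scaling, axes from 0) with the mean and SD of each group (bars, n = 3). Psma5, Psmb7, Psmc4 and Psmd11 step up from GFP to Yap1 WT to Yap1 shRNA, Psmb5 is lowest in Yap1 WT, Psmb6 and Psma7 overlap between groups, and the Psmd14 libraries are uneven within each group.

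In the ATPase ring, 4 of the 6 subunit genes rose in Yap1 WT and 5 of 6 in Yap1 shRNA. Psmc4 measured 130, 138 and 140 CPM in GFP, 154, 165 and 160 CPM in Yap1 WT and 237, 251 and 240 CPM in Yap1 shRNA. Its log2 fold change was 0.23 (SE 0.05, adjusted p = 0.0016) in Yap1 WT and 0.84 (SE 0.05, adjusted p = 7.9e-09) in Yap1 shRNA, the largest of the ring there. Psmc1 had the largest change of the ring in Yap1 WT: it measured 176, 176 and 185 CPM in GFP, 219, 249 and 232 CPM in Yap1 WT and 273, 305 and 313 CPM in Yap1 shRNA, with log2 fold changes of 0.38 and 0.73. Psmc2 and Psmc6 rose by 0.31 and 0.26 in Yap1 WT and by 0.73 and 0.58 in Yap1 shRNA on the log2 scale. Psmc3 measured 203, 219 and 232 CPM in GFP, 226, 237 and 230 CPM in Yap1 WT and 273, 278 and 276 CPM in Yap1 shRNA. It was called in the knockdown (log2 fold change 0.34, adjusted p = 8.82e-05), while its WT libraries overlapped GFP (0.08, adjusted p = 0.196). With the length trend removed it was called higher in Yap1 WT as well (0.12, adjusted p = 0.0303). Psmc5 was not called in either group with TMM scaling, at 0.10 and 0.11. In Yap1 WT it was called higher with library size alone (0.24, adjusted p = 0.00257), on TPM (0.26, adjusted p = 0.000722) and with the length trend removed (0.17, adjusted p = 0.00564). All tested genes had medians of 0.138, 0.136 and 0.031 in those fits, in the same order. In Yap1 shRNA it was called higher on TPM (0.32, adjusted p = 0.000115), when counts were thinned to equal depth (0.17, adjusted p = 0.0311) and with the length trend removed (0.24, adjusted p = 0.000494). Psmc3ip, which is no subunit, measured 9.98, 8.52 and 9.91 CPM in GFP, 9.01, 10.8 and 11.1 CPM in Yap1 WT and 7.82, 8.76 and 9.65 CPM in Yap1 shRNA. Its log2 fold changes were 0.12 (SE 0.13) and -0.11 (SE 0.14), with overlapping groups.

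In the rest of the base, Psmd1 and Psmd2 form the scaffold and Psmd4 is a receptor for ubiquitin chains. Psmd1 rose by 0.49 in Yap1 WT and 1.07 in Yap1 shRNA on the log2 scale, and Psmd2 by 0.29 and 0.48. Psmd4 differed in pattern. It measured 107, 114 and 113 CPM in GFP, 104, 122 and 115 CPM in Yap1 WT and 166, 169 and 168 CPM in Yap1 shRNA. Its GFP and WT libraries overlapped (log2 fold change 0.03, adjusted p = 0.7), whereas all 3 knockdown libraries lay above both (0.59 against GFP, SE 0.06, adjusted p = 1.17e-06). The direct difference between Yap1 WT and Yap1 shRNA was -0.56 (SE 0.06, adjusted p = 4.87e-06).

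Among the fixed parts of the particle, the lid had the largest median change in both comparisons with GFP. Psmd11, a scaffold subunit of the lid, measured 92.8, 94.4 and 95.1 CPM in GFP, 143, 172 and 164 CPM in Yap1 WT and 298, 312 and 313 CPM in Yap1 shRNA. Its groups were far apart and its GFP libraries differed by little. The log2 fold change was 0.76 (SE 0.07, adjusted p = 4.63e-07) in Yap1 WT and 1.71 (SE 0.07, adjusted p = 1.09e-10) in Yap1 shRNA, a 3.27-fold gain. Between the Yap1 groups it differed by -0.95 (SE 0.06, adjusted p = 7.14e-08). The authors' deposited table gives 0.77 and 1.71 for the same 2 comparisons with GFP. Psmd3, Psmd12 and Psmd7, also of the lid, rose by 0.60, 0.64 and 0.43 in Yap1 WT and by 1.19, 1.06 and 0.99 in Yap1 shRNA. Psmd13 and Psmd8 rose by less, 0.24 and 0.17 in Yap1 WT and 0.47 and 0.38 in Yap1 shRNA. Psmd6 measured 103 to 111 CPM in GFP, 105 to 118 CPM in Yap1 WT and 185 to 206 CPM in Yap1 shRNA. Like Psmd4, it was called in the knockdown (log2 fold change 0.87, adjusted p = 2.33e-08) and, with TMM scaling, not in Yap1 WT (0.05, adjusted p = 0.466), and the direct difference of -0.82 was called (adjusted p = 1.54e-07).

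Psmd14, the deubiquitinase of the lid, was the least even member and was singled out after its values were seen. It measured 52.5, 32.0 and 56.7 CPM in GFP, 74.3, 29.2 and 72.3 CPM in Yap1 WT and 74.1, 41.5 and 41.3 CPM in Yap1 shRNA. Replicate 2 was low in GFP and in Yap1 WT, and replicate 1 was high in Yap1 shRNA. Its coefficient of variation, 28.1%, 43.5% and 36.1% in the 3 groups, was the highest of the 38 in each, where the median member had 3.37%, 6.09% and 4.55%. Its log2 fold changes were 0.32 (SE 0.31) and 0.16 (SE 0.33), so a gain like that of the other lid genes could not be told from none. Without Yap1 WT replicate 2 it was called higher in Yap1 WT, at 0.64 (adjusted p = 0.0282).

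Of the assembly chaperones, Psmd5 rose by 0.57 and 0.94 in Yap1 WT and Yap1 shRNA on the log2 scale. Psmd9 rose by 0.19 (adjusted p = 0.0398) and 1.04 (adjusted p = 3.32e-08), and its WT libraries overlapped GFP. Its call in Yap1 WT was lost with DESeq2 (adjusted p = 0.0502) and when counts were thinned to equal depth (adjusted p = 0.173). The authors' deposited DESeq2 q-value for it there is 0.16. Psmd10 was near 1 CPM throughout: 1.04, 0.811 and 1.09 CPM in GFP, 1.49, 1.2 and 1.2 CPM in Yap1 WT and 0.958, 0.506 and 0.644 CPM in Yap1 shRNA. Its log2 fold changes of 0.40 (SE 0.28) and -0.47 (SE 0.37) were not called.

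The activators and the inhibitor of the core rose in both groups. Psme3, the nuclear activator also called PA28 gamma, measured 125, 127 and 126 CPM in GFP, 169, 176 and 174 CPM in Yap1 WT and 249, 244 and 262 CPM in Yap1 shRNA. Its 3 groups were tight and separate, with log2 fold changes of 0.46 (SE 0.05, adjusted p = 2.97e-06) and 1.00 (SE 0.05, adjusted p = 6.95e-10). Psme4, the large activator known as PA200, rose by 0.52 in Yap1 WT and 0.42 in Yap1 shRNA on the log2 scale, with no call between them (0.10, adjusted p = 0.104). Psmf1, the inhibitor, measured 35.8, 36.4 and 36.7 CPM in GFP, 47.4, 58.1 and 54.0 CPM in Yap1 WT and 45.5, 51.9 and 44.7 CPM in Yap1 shRNA. Both Yap1 groups lay above GFP, with log2 fold changes of 0.55 and 0.38, and they overlapped each other (difference 0.17, SE 0.08, adjusted p = 0.104).

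Set against each other, core and regulatory genes had similar shares called in each comparison with GFP. With Yap1 WT, 10 of 14 core genes rose and 14 of 21 regulatory genes rose, and in Yap1 shRNA 11 of 14 and 17 of 21. The medians lay farther apart in the knockdown. The median log2 fold change was 0.22 for core and 0.29 for regulatory genes in Yap1 WT, and 0.36 for core and 0.73 for regulatory genes in Yap1 shRNA. Between Yap1 WT and Yap1 shRNA, 8 of 14 core genes and 17 of 21 regulatory genes were lower in WT, with medians of -0.16 and -0.37. By place in the particle, the knockdown medians were 0.26 in the alpha ring and 0.42 in the beta ring. They were 0.66 in the ATPase ring, 0.59 in the rest of the base and 0.93 in the lid. In Yap1 WT these medians were, in the same order, 0.26, 0.18, 0.24, 0.29 and 0.37. Leaving out Psmb11, Psmc3ip and the 3 chaperones gave 0.36 and 0.73 again in the knockdown. Without Yap1 WT replicate 1 the core and regulatory medians in Yap1 WT were equal, at 0.28.

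Transcript length moved with this contrast. Core genes are short: their median length was 0.286 of that of the median gene, and that of regulatory genes 0.544. The shortest 10% of the tested genes held 11 core and 2 regulatory members. Among those genes the median log2 fold change was -0.17 in Yap1 WT and -0.42 in Yap1 shRNA, and in the longest 10% it was 0.01 and 0.11. When each library's trend on length was removed, an alternative chosen after seeing the data, the core and regulatory medians were 0.40 and 0.29 in Yap1 WT and 0.69 and 0.81 in Yap1 shRNA. The lower core median thus turned to a higher one in Yap1 WT and the gap in the knockdown shrank from -0.37 to -0.12. On that basis 33 of the 38 genes were called higher in Yap1 WT and 35 in Yap1 shRNA. The medians of all tested genes were then 0.031 and 0.001. The share of all tested genes called in that fit was not counted, so these counts have no background to be read against. What lies behind the trend on length was not tested.

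**Figure D3:**
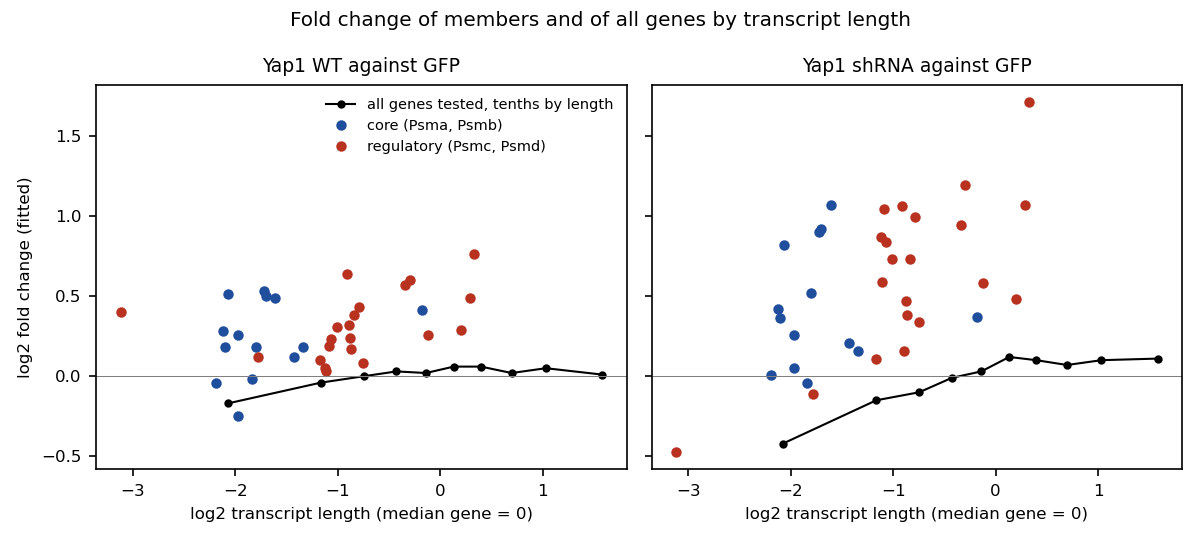
Fitted log2 fold change against log2 transcript length relative to the median gene, for core and regulatory members (points) and for the median of all tested genes in 10 equal bins by length (black line). The line falls to -0.17 in Yap1 WT and -0.42 in Yap1 shRNA in the bin of the shortest genes, where 11 core members lie.

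On the scale that allows for length, core genes were the more abundant. These means cover the 14 core and 17 regulatory genes that are fixed parts of the particle. For the core genes the mean was 233 ± 0.39 TPM (SD, n = 3) in GFP, 306 ± 14.6 in Yap1 WT and 365 ± 5.54 in Yap1 shRNA. For the regulatory genes it was 122 ± 2.94, 168 ± 6.94 and 233 ± 4.24 TPM. The ratio of core to regulatory means was 1.93, 1.94 and 1.86 in the GFP libraries, 1.82, 1.84 and 1.83 in Yap1 WT and 1.52, 1.61 and 1.58 in Yap1 shRNA. The 3 groups did not overlap in this ratio, and the knockdown libraries were lowest. TPM does not remove the trend on length between libraries, so the ratio still carries it. With that trend removed, the core and regulatory median log2 fold changes were 0.40 and 0.29 in Yap1 WT and 0.69 and 0.81 in Yap1 shRNA. In each group the beta ring had the highest mean, at 280 ± 3.15, 364 ± 16.1 and 449 ± 6.34 TPM, and the alpha ring came next. The summed TPM of all 39 genes was 5566 ± 47.9 in GFP, 7489 ± 335 in Yap1 WT and 9523 ± 75.3 in Yap1 shRNA. As a share of all counts the members took 0.461%, 0.628% and 0.728%.

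**Figure D4:**
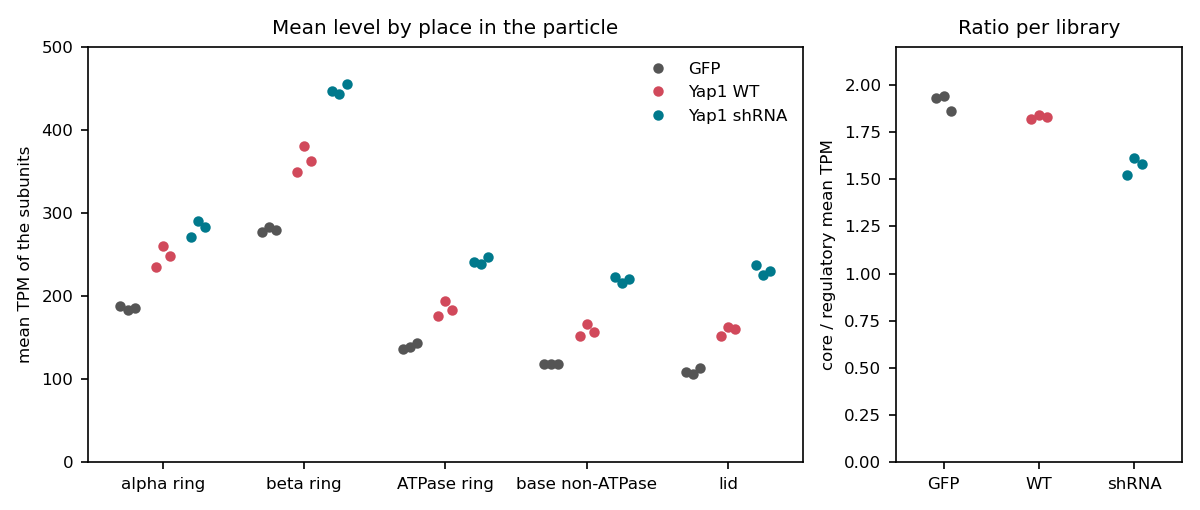
Left, mean TPM of the subunits of each ring, base and lid in each library, by group. Right, the ratio of the core mean to the regulatory mean in each library, with the axis from 0. The ratio spans 1.86 to 1.94 for GFP, 1.82 to 1.84 for Yap1 WT and 1.52 to 1.61 for Yap1 shRNA. The trend on length between libraries is not removed from it.

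Single genes also changed place in the order of levels. In GFP, Psmb1 led with 384 ± 1.09 TPM (SD, n = 3), then Psmb5 with 314 ± 15.5 and Psma7 with 285 ± 14.8. In Yap1 shRNA, Psmb7 led with 603 ± 49.6 TPM and Psmb1 followed with 568 ± 7.74, a gap within the spread of Psmb7. There Psmb5 was 7 in rank and Psma7 was 12. Psmd11 went from 39.4 ± 0.509 TPM in GFP, the lowest mean of the lid genes (Psmd14 was at 45.8 ± 13.3, within its spread), to 79.1 ± 7.16 in Yap1 WT and 183 ± 7.62 in Yap1 shRNA. The spread of levels among the fixed regulatory genes depended on Psmd14. The SD of their log2 TPM was 0.633 in GFP, 0.536 in Yap1 WT and 0.492 in Yap1 shRNA without Psmd14, and 0.705, 0.645 and 0.69 with it. For the core genes it was 0.588, 0.529 and 0.606.

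Within groups, 1 library tended to be low across the members. Replicate 1 held the lowest value of its group in 28 of 38 genes in GFP, 33 in Yap1 WT and 26 in Yap1 shRNA. Leaving out 1 library at a time left 25 to 27 genes called higher with added Yap1 and 28 to 32 with the knockdown. The calls that did not stand in every such fit were of small changes. In Yap1 WT they were Psma1, Psmb4, Psmd8 and Psmd9, with adjusted p between 0.0519 (Psma1 without GFP replicate 3) and 0.163 (Psmd9 without Yap1 WT replicate 2) where lost. In Yap1 shRNA they were Psma1, Psma2 and Psma4, with adjusted p up to 0.104 (Psma4 without Yap1 shRNA replicate 2). Between Yap1 WT and Yap1 shRNA they were Psmb1 and Psmb2, with adjusted p up to 0.127 (Psmb2 without Yap1 WT replicate 1). Other genes, not called with all 9 libraries, were called with 1 left out. Psmd14 was called higher in Yap1 WT than in GFP without Yap1 WT replicate 2 (0.64, adjusted p = 0.0282). Without Yap1 shRNA replicate 1, Psmc5 was called higher in the knockdown (0.15, adjusted p = 0.0326), and between the Yap1 groups Psma4 (-0.17, adjusted p = 0.0371) and Psmd10 (1.15, adjusted p = 0.0481) were called. Psmf1 was called higher in Yap1 WT than in Yap1 shRNA without Yap1 WT replicate 1 (0.25, adjusted p = 0.0142) or Yap1 shRNA replicate 2 (0.24, adjusted p = 0.0427).

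Other genes of the pathway were counted on lists chosen for what the genes do. The values are log2 fold changes in Yap1 WT and then in Yap1 shRNA, both against GFP. The shares of all tested genes to set beside the counts are 32.0% higher and 31.8% lower in Yap1 WT, and 39.2% and 39.1% in Yap1 shRNA. Among 12 shuttle receptors and proteasome-bound deubiquitinases, 9 rose and 2 fell in Yap1 WT, and 10 rose and 2 fell in Yap1 shRNA, with list medians of 0.30 and 0.77 beside 0.00 and -0.01 over all tested genes. Zfand2a, which encodes a stress-induced partner of the proteasome, had 43.2 ± 2.03 CPM in GFP, 459 ± 99.7 in Yap1 WT and 1913 ± 37.2 in Yap1 shRNA (SD, n = 3), log2 fold changes of 3.41 and 5.47. Zfand5, an activator of the particle, rose by 0.81 and 2.08, and the shuttle receptor Rad23b by 0.51 and 1.15. Adrm1 and Sem1 encode subunits of the regulatory particle that carry no Psm symbol, and they parted. Adrm1 rose by 0.35 and 0.95, whereas Sem1 fell, at -0.41 and -0.68. Among 7 assembly factors and other activators or inhibitors outside the set, 2 rose and 1 fell in Yap1 WT (median 0.14). In Yap1 shRNA 2 rose and 3 fell (median -0.08), so the share that rose was no larger than among all genes. Those that rose were Akirin2, which brings proteasomes into the nucleus (0.41 and 1.59), and the thioredoxin Txnl1, which binds the regulatory particle (0.59 and 1.39). No assembly factor of the core (Pomp and Psmg1 to Psmg4) was called higher in either comparison with GFP. Psmg1, a chaperone of the alpha ring, fell (-0.51 and -0.72). Psmg2 and Psmg4 fell in Yap1 shRNA (-0.5 and -0.39) and were not called in Yap1 WT. Pomp, the maturation factor of the core, was not called (0.14 and -0.08), and neither was Psmg3.

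Among 10 genes for transcription of the subunits, 4 rose and 2 fell in Yap1 WT, and 8 rose and 2 fell in Yap1 shRNA (medians 0.12 and 0.77). In Yap1 WT the share that rose is near the 32.0% of all tested genes called higher (31.8% were lower), and in Yap1 shRNA 39.2% of all genes were higher and 39.1% lower. Nfe2l2 rose by 0.55 and 1.14, and the small Maf genes Mafg by 0.62 and 1.25, Mafk by 0.29 and 1.67 and Maff by 0.83 and 2.25. Nfe2l1, whose protein is controlled mainly by its own cleavage and degradation, was at 0.03 (adjusted p = 0.585) and 0.16 (adjusted p = 0.0119). Ngly1, the enzyme that removes sugar chains from Nfe2l1, fell, at -0.51 and -0.48.

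Of 15 genes for ubiquitin, its activation and its extraction, 7 rose and 3 fell in Yap1 WT, and 7 rose and 2 fell in Yap1 shRNA (medians 0.13 and 0.09), where 32.0% and 31.8% of all tested genes were called higher and lower in Yap1 WT and 39.2% and 39.1% in Yap1 shRNA. Ubb, which encodes a chain of ubiquitin units, rose by 0.85 and 1.16. Rps27a, which encodes ubiquitin fused to a ribosomal protein, was at -0.07 in Yap1 WT, with no call, and fell by 0.32 in Yap1 shRNA. Of 12 ubiquitin ligases of muscle and of protein quality control, 6 rose and 4 fell in Yap1 WT, and 7 rose and 2 fell in Yap1 shRNA (medians 0.13 and 0.62), beside the same shares of all genes. Among them Trim55, a sarcomere ligase, fell (-1.69 and -3.08), and Fbxo30 rose by 0.82 and 1.79. The Trim genes of the list did not move alike. Trim54 rose by 0.41 and 1.38, and Trim63 fell in Yap1 WT (-0.45) with no call in Yap1 shRNA (-0.12). Of the 5 genes left out of the rule, 4 rose and none fell in Yap1 WT, and 3 rose and 1 fell in Yap1 shRNA (medians 1.3 and 0.58). Psmb8 rose by 3.68 and 2.88, and Psme1 fell by 1.23 in Yap1 shRNA with no call in Yap1 WT (-0.14). All 5 were higher in Yap1 WT than in Yap1 shRNA (median 0.93), where with TMM scaling no constitutive member was called higher and 31.2% of all tested genes were.

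The genes outside the set with the most similar course over the 9 libraries were Gmps, Slc3a2, Ifrd1, Rcl1 and LOC103690154, with Pearson correlations of log2 CPM to the mean course of the members of 0.9986, 0.9983, 0.9983, 0.998 and 0.9979. Slc3a2, for example, had 338, 547 and 840 CPM in the 3 groups. The 9 points form 3 groups, so these correlations reflect the order and spacing of the groups. Among the members, Psmd3, Psmd12 and Psmd11 followed the mean course most closely (0.997, 0.996 and 0.994), while Psma7, Psmc3ip and Psmd10 had negative values (-0.142, -0.207 and -0.46).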

How the data were processed

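Polyadenylated RNA of 9 libraries (3 per group) was sequenced on a BGISEQ-500, per the labels' protocols, which do not state the strand. The submitters' processing notes name HISAT2, Bowtie2, RSEM 1.3.1, DESeq2 1.4.5 and build rn6, with no role given. The authors deposited expected counts per gene, of which 89.8% were whole within 0.005, and TPM values scaled within each library. The deposited table also holds the authors' log2 fold changes and DESeq2 q-values, per the file headers. A further table repeats those columns and was not used.

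Expected counts were rounded and fitted in edgeR 4.0.16 (limma 3.58.1, DESeq2 1.42.0, R 4.3.3) over all 9 libraries in 1 model of group, scaled by TMM. Low genes were removed by filterByExpr, and 13708 remained. A call is a two-sided quasi-likelihood p, adjusted by Benjamini-Hochberg across these genes, under 0.05. The biological coefficient of variation was 7.18%. The SE was derived from the log2 fold change and the F statistic. The script was tested on simulated counts. No p-value was computed for any list. Per gene, values in every library are given for the catalytic subunits, for the largest and smallest change of each class in either comparison with GFP, and for members below the filter. The members, lists and rules were chosen with earlier results of these data known. Alternatives were other scalings, filters and tools, thinning to 6103220 counts, a replicate term, leaving out each library, and, chosen after seeing the data, removal of the trend on transcript length and a narrower set of subunits. Genes sharing reads with pseudogene copies could be split by the authors' counting. Reads of antisense or overlapping genes cannot be told apart without strand.

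Pathway genes not found in the table by symbol were Paaf1, Ecpas, Pi31 and Huwe1. Marker lists of other cell types had little signal for endothelium (41.2 to 66.3 CPM summed), macrophages (20.6 to 41.9 CPM) and epicardium (58.6 to 69.0 CPM). Smooth muscle and pericyte markers summed to 8557 to 9064 CPM in GFP, 3616 to 4940 CPM in Yap1 WT and 3292 to 3720 CPM in Yap1 shRNA. Neural and glial markers summed to 38.8 to 40.3, 51.1 to 62.3 and 136 to 157 CPM.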

Additional observations from a re-analysis of the deposited data

How the results depend on the processing

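Of 22 alternatives per comparison, all left the medians of core and regulatory genes on their side of 0 and most calls in place. On TPM the median of all genes was 0.136 in Yap1 WT and 0.156 in Yap1 shRNA, against 0.00 and -0.01. Members called lower in Yap1 WT numbered 0 on TPM, with library size alone or when the length trend was removed, and 1 was called lower in Yap1 shRNA with upper quartile scaling. Against Yap1 shRNA, members called higher in Yap1 WT numbered 6 with upper quartile scaling, 5 with library size alone, and 1 when the length trend was removed or TPM was used. Leaving out 1 library at a time gave 0 to 1.

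The core minus regulatory gap in Yap1 WT was -0.07, and 0.11 with the length trend removed. That gap was -0.12 in Yap1 shRNA and 0.03 between the Yap1 groups on that basis, and 0.26 between them without Psmb11, Psmc3ip and the chaperones. Leaving out 1 library at a time gave -0.08 to 0.00 in Yap1 WT and 0.18 to 0.26 between the Yap1 groups. With thinning and a replicate block the gap in Yap1 WT was -0.01. The replicate block alone gave 27 higher and 1 lower, 31 and 0, and 0 and 26, as without it. Same-numbered libraries deviated together with correlations of -0.031 to 0.094, under the 0.1 set for pairing in each pair, so the block was not taken as the design. A shared factor is not excluded by this, and replicate 1 was low in all 3 groups.

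Signs turned for members near 0. In Yap1 WT, Psma7 was 0.11 with library size alone, 0.14 both on TPM and when the length trend was removed, and -0.06 to 0.01 leaving out 1 library. Psmb6 was 0.09, 0.14 and 0.17 in those 3 settings and 0.02 when thinned, with or without the block. Psmd4 was -0.02 with no count filter and -0.03 to 0.09 leaving out 1 library. In Yap1 shRNA, Psma7 was 0.17 on TPM, 0.29 with the length trend removed and -0.08 to 0.01 leaving out 1 library. Psmb5 was -0.09 with upper quartile scaling, -0.03 with no count filter and -0.01 to 0.08 leaving out 1 library. Psmb6 was -0.13, -0.07 and, on the 6 libraries compared, -0.01, with -0.02 to 0.06 leaving out 1 library. Psmc3ip was 0.04 on TPM and 0.20, and Psmd10 0.13, with the length trend removed. Between the Yap1 groups, Psma7 was -0.03 on TPM, -0.15 with the length trend removed and -0.04 to 0.06 leaving out 1 library, and Psmb6 was 0.08 with upper quartile scaling and 0.06 with library size alone. The cause was not tested. Members' SEs were similar in both comparisons with GFP, and thinning to equal depth lost 3 calls in Yap1 WT and 1 in Yap1 shRNA.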
